A study of Homo sapiens with 6 samples.

Results

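Processed pseudogenes were examined inside and outside the protein-coding genes that host them. Members were the counted transcripts whose GENCODE gene type is processed pseudogene or transcribed processed pseudogene, and 2641 of 42371 counted Ensembl transcripts met that rule. Of these, 2337 were of the first type and 304 of the second. A counted transcript that lay wholly within a protein-coding gene on its own strand was placed in the same-strand group (316 members), and one that lay wholly within such a gene only on the opposite strand was placed in the other-strand group (431 members). A further 1848 overlapped no protein-coding gene and form the outside group, and 46 overlapped one only in part. Identifiers of 5032 counted transcripts were not matched to the annotation and could not be placed.

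K562, a human erythroid leukaemia cell line grown with no specific treatment, was measured with 4 libraries of total RNA (RNA-seq) and 2 of nascent RNA (PRO-seq). RNA-seq after depletion of ribosomal RNA measures the steady-state level of RNA, and PRO-seq measures engaged RNA polymerase along a transcription unit (TU). All libraries came from cells of 1 flask, so the spread between replicates is technical, and the compared groups are 2 assays and not 2 conditions.

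A processed pseudogene forms when a mature mRNA is reverse transcribed and the copy, without introns and often with a tail of A bases, is inserted elsewhere in the genome. The copy usually lacks the promoter of its source, so its transcription depends on where it landed. A copy that lies in an intron of a host gene in the same orientation is passed by the polymerase of the host and is part of the host's pre-mRNA. Because a copy keeps the sequence of spliced mRNA, a short read from the source mRNA can match the copy over its whole length.

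The likeness of copy and source can be read directly from windows as long as 1 RNA-seq read (75 bases), centred on an exon-exon junction of the source mRNA within its coding sequence. The 6 pairs below include members with many RNA-seq counts from each group and KRT18P55, a member with few RNA-seq counts and many PRO-seq counts. Each is written 5′ to 3′ on the sense strand of the RNA, the junction of the source lies between bases 37 and 38, and capitals mark the bases that differ between the pair.
ENSG00000283041 (chr7:132719991-132720065, GRCh37, minus strand): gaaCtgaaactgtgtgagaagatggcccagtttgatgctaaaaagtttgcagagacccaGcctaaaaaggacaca
EEF1G mRNA: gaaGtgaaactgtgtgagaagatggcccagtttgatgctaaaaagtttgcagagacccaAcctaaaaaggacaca
CCT8P1 (chr1:146675536-146675610, GRCh37, minus strand): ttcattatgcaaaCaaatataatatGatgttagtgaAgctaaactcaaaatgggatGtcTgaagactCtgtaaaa
CCT8 mRNA: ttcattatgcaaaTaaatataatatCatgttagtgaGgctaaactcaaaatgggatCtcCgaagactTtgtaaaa
HSPD1P1 (chr5:21883532-21883606, GRCh37, plus strand): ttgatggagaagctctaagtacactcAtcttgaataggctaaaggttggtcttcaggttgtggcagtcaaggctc
HSPD1 mRNA: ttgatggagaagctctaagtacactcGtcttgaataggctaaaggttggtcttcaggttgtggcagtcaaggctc
EEF1A1P5 (chr9:135895457-135895531, GRCh37, plus strand): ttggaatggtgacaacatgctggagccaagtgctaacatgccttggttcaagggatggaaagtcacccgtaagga
EEF1A1 mRNA: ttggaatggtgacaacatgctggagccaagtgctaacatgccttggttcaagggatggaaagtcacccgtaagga
HSP90AB3P (chr4:88814080-88814154, GRCh37, plus strand): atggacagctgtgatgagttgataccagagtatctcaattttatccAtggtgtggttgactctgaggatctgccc
HSP90AB1 mRNA: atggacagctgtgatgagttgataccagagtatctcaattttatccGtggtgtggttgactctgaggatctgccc
KRT18P55 (chr17:26603675-26603749, GRCh37, minus strand): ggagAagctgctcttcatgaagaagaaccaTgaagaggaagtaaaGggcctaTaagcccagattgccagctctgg
KRT18 mRNA: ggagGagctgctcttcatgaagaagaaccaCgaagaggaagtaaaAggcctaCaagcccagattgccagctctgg

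Each copy runs through the junction without a break, as the spliced mRNA does. EEF1A1P5 and EEF1A1 carry no difference in this window, and their longest stretch without a difference is 425 bases. HSPD1P1 and HSP90AB3P differ from their sources at 1 base, ENSG00000283041 at 2, KRT18P55 at 4 and CCT8P1 at 6. The longest stretch without a difference is 542 bases in ENSG00000283041 and 66 bases in KRT18P55, so no 75-base read of the counted KRT18 transcript matches KRT18P55 exactly.

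Counts on TUs ranged from 5732780 to 9002746 in the RNA-seq libraries and were 6993816 and 7245632 in the PRO-seq libraries. The assays differed in the records set aside. Records of low alignment quality were 0.0% in every RNA-seq library and 21.6% and 20.6% in PRO-seq, and records with no unique alignment were 24.5% to 28% in RNA-seq and 2.79% and 2.73% in PRO-seq. All 9 markers of K562 cells fixed for the check, among them the fetal and embryonic globins HBG1, HBG2 and HBE1 and the erythroid factor GATA1, had RNA-seq counts. Of the markers of other cell types, 6 of 8 were counted, and their summed level was 70.1 to 75.2 TPM against 11200 to 12100 TPM for the K562 list. PTPRC, a leukocyte gene, held 71.8 TPM of it.

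Same-strand members stood apart in both assays, in opposite directions. In PRO-seq this followed the annotation: none of the 287 spanned by their host's counted transcript had a count, against 7 of 20 not spanned. In RNA-seq, 226 of 316 (71.5%) had at least 1 count summed over the 4 libraries, against 229 of 431 (53.1%) on the other strand and 953 of 1848 (51.6%) outside. In PRO-seq, 7 of 316 (2.22%) had at least 1 count summed over the 2 libraries, against 113 of 431 (26.2%) on the other strand and 514 of 1848 (27.8%) outside. Over all matched TUs these shares were 68.1% in RNA-seq and 73.1% in PRO-seq, and over protein-coding TUs 84.9% and 87.9%.

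The single libraries also set the same-strand group apart. The share of same-strand members with a count was 54.4%, 56.6%, 46.2% and 52.8% in RNA-seq replicates 1 to 4, and 1.9% in both PRO-seq replicates. On the other strand it was 30.4%, 32.7%, 28.3% and 32.5% in RNA-seq, and 17.4% and 18.3% in PRO-seq. Outside coding genes it was 33.8%, 33.5%, 29.9% and 30.4%, and 20.7% and 21.0%. The RNA-seq libraries of the same-strand group did not overlap those of the other groups, whereas the RNA-seq ranges of the other-strand and outside groups overlapped, with outside members higher in replicates 1 to 3 and other-strand members higher in replicate 4.

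**Figure D1:**
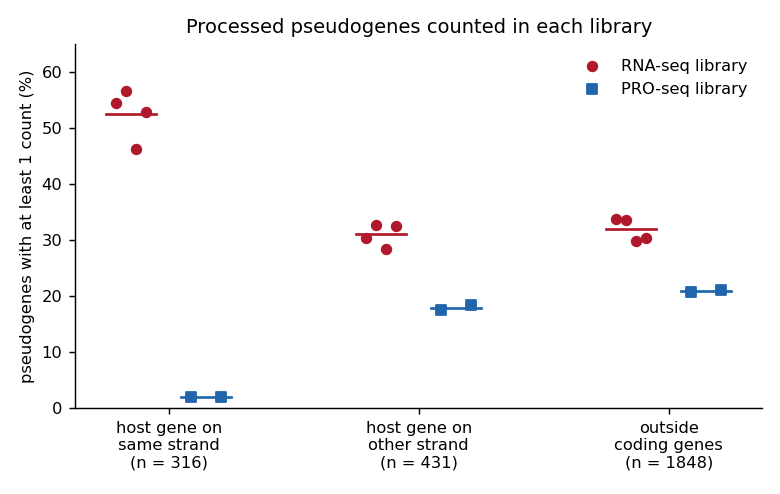
Share of processed pseudogenes with at least 1 count (y axis, percent) in each of the 4 RNA-seq libraries (red circles) and 2 PRO-seq libraries (blue squares), by location (x axis), with a line at the mean. Same-strand members lie between 46.2% and 56.6% in RNA-seq and at 1.9% in PRO-seq. None of the 287 same-strand members spanned by their host's counted transcript has a PRO-seq count.

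Most same-strand members with RNA had no PRO-seq count. RNA-seq counts without any PRO-seq count were found for 220 of them (69.6%), against 154 (35.7%) on the other strand and 605 (32.7%) outside. Counts in both assays were found for 6, 75 and 348 members. PRO-seq counts alone were found for 1, 38 and 166, and 89, 164 and 729 had no count in either assay.

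The groups were close in length, identity and base composition and differed in type and source. The transcribed type made up 47 of 316 same-strand, 29 of 431 other-strand and 188 of 1848 outside members, and the median RNA-seq level of the source was 90.3, 88.0 and 58.2 TPM. The median span was 1430 bp on the same strand, 1380 bp on the other strand and 1470 bp outside, which left a median of 430, 382 and 466 bp for PRO-seq counting after 500 bp were left out at each end. Median identity to the closest counted mRNA was 89.5%, 88.0% and 88.8%, and median GC content was 46.1%, 44% and 45.4%. A run of at least 8 A bases within 50 bases after the annotated end, as is left by a poly(A) tail, was present after 10 of 316, 8 of 431 and 40 of 1848 members, or 2.31% of all members against 1.62% of protein-coding TUs.

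The PRO-seq counts of same-strand members followed the annotation of the host. For 287 of the 316, the counted transcript of the host spanned the member, and none of these 287 had a PRO-seq count, while 203 of them held 24086 RNA-seq counts. All 7 same-strand members with PRO-seq counts were among the 20 whose host's counted transcript did not span them. Over all locations, 446 members had a PRO-seq window that other counted TUs on the same strand covered to at least 99%, and 2 of these (0.448%) had 1 PRO-seq count each, whereas 301 (67.5%) had RNA-seq counts. Where other TUs covered the window only on the opposite strand, 138 of 564 (24.5%) had PRO-seq counts, and where none covered it, 481 of 1556 (30.9%) did. No source used here states how the counting treated reads in a window shared by TUs, so a PRO-seq count of 0 in a same-strand member is no measure of the polymerase that passed it.

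RNA on same-strand members followed the transcription of the host. Where the host had at most 1 TPM in PRO-seq, 44 of 96 same-strand members (45.8%) had RNA-seq counts. The share was 59.3% of 59 at hosts of 1 to 5 TPM, 93.4% of 61 at 5 to 20 TPM, 93.6% of 47 at 20 to 50 TPM and 95.8% of 24 above 50 TPM. The median summed RNA-seq count over these classes went from 0 to 1, 8, 15 and 35.5.

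Members on the other strand of their host showed no such order. The share with RNA-seq counts was 54.5% of 121, 53.3% of 60, 45.5% of 88, 43 of 86 and 59.0% of 39 in the same 5 classes of host PRO-seq level. Spearman's correlation between the PRO-seq TPM of the host and the RNA-seq TPM of the member was 0.562 over 287 same-strand members and -0.0511 over 394 other-strand members whose hosts' counted transcripts span them. In single RNA-seq libraries it was between 0.472 and 0.562 on the same strand. These points share libraries, and members of 1 host share its level, so the values are descriptions.

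**Figure D2:**
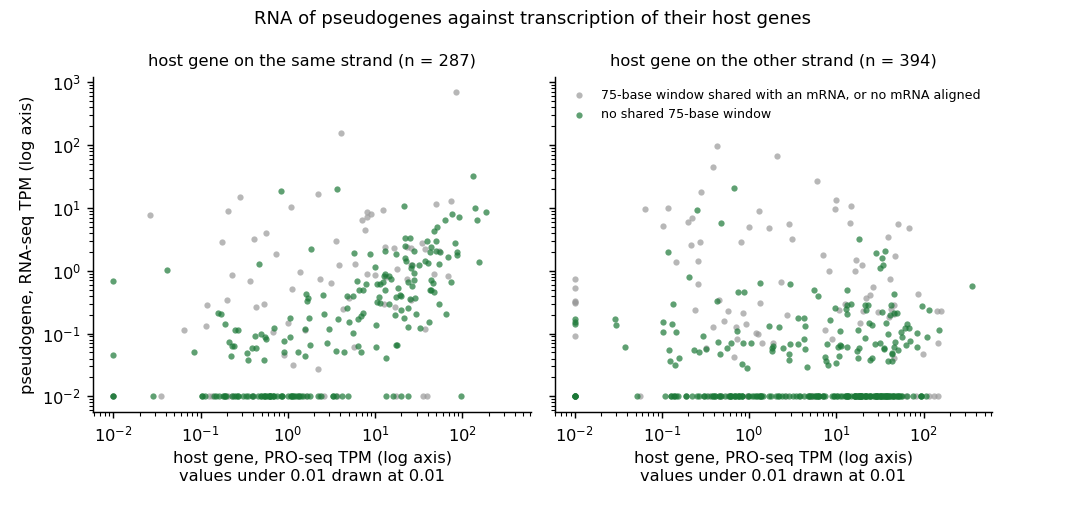
RNA-seq TPM of each pseudogene (y axis, log) against PRO-seq TPM of its host gene (x axis, log), for 287 same-strand members (left) and 394 other-strand members (right), with green points for members that share no exact 75-base window with their source mRNA. Spearman's correlation is 0.562 on the left and -0.0511 on the right.

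The relation to the host was also present in members that share no exact 75-base window with the counted transcript of their source. Reads made shorter by trimming, and other transcripts of the source, were not examined. Among same-strand members with no 75-base window shared with the source, 38.6% of 70 had RNA-seq counts at hosts of at most 1 TPM, and 93% of 43, 97.2% of 36 and 94.7% of 19 at hosts of 5 to 20, 20 to 50 and above 50 TPM. Spearman's correlation was 0.692 over the 208 such members. On the other strand the shares were 42.7% of 82, 36.2% of 69, 41.7% of 72 and 59.3% of 27, and the correlation was 0.0435 over 293. Exons of other counted TUs overlapped 16 of the same-strand members. Of the other 300, 217 (72.3%) had RNA-seq counts.

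Individual genes show the contrast between strands. The next members were picked after their values were seen, as those with the most RNA-seq counts among members with no shared 75-base window at spanning hosts above 50 TPM in PRO-seq. On the same strand they were LRRFIP1P1, FBXW4P1, HSPD1P11, AURKAP1, KRT8P39 and KRT18P5. LRRFIP1P1 (chr3:178976816-178979061, minus strand) lies in KCNMB3, which encodes a potassium channel subunit and had 132 TPM in PRO-seq. Its RNA-seq counts were 264, 346, 159 and 238, and its PRO-seq counts were 0 and 0. Only 277 bases of its 2246 aligned to the counted transcript of LRRFIP1, at 94.2% identity. That transcript had 7.08 TPM in RNA-seq against 32.6 TPM for the copy. Other transcripts of LRRFIP1 were not examined.

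FBXW4P1 (chr22:23604954-23607192, plus strand) is a copy of the F-box gene FBXW4 with 92.2% identity and lies in BCR, which had 139 TPM in PRO-seq. Its RNA-seq counts were 71, 111, 55 and 73, and its PRO-seq counts were 0 and 0. HSPD1P11, a copy of the mitochondrial chaperonin gene HSPD1 in RHOBTB3 (185 TPM), had 60, 57, 37 and 45 RNA-seq counts. AURKAP1, a copy of the mitotic kinase gene AURKA in RAB3GAP2 (76.6 TPM), had 38, 39, 29 and 27. Every RNA-seq library counted each of these 6 members, and no PRO-seq library counted any. KRT8P39 in NUP107, a nuclear pore gene, had 127 RNA-seq counts in all, and KRT18P5 in KLHL22 had 114.

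On the other strand the same choice gave far lower counts. FEN1P1, a copy of the flap endonuclease gene FEN1 on the strand opposite HFM1 (361 TPM in PRO-seq), had 3, 2, 1 and 3 RNA-seq counts. EIF2AK1P1, opposite the checkpoint kinase gene ATR (50.1 TPM), had 4, 0, 1 and 1 RNA-seq counts and 2 and 6 PRO-seq counts. FEN1P1 held 9 RNA-seq counts in all, the most of this set, and KRT18P5, the lowest of the 6 on the same strand, held 114. The set leaves out members that their host's counted transcript does not span. One of these, HSPD1P12 opposite SLC2A3 (386 TPM in PRO-seq), shared no 75-base window with its source and held 842 RNA-seq counts.

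The largest RNA-seq level of any same-strand member was that of ENSG00000283041 (chr7:132719367-132720680, minus strand), a copy of EEF1G, the gamma subunit of translation elongation factor 1, with 99.2% identity. It lies in CHCHD3, a mitochondrial inner membrane gene with 85.6 TPM in PRO-seq. Its RNA-seq counts were 3500, 3764, 2534 and 2616, or 687 TPM, and its PRO-seq counts were 0 and 0. EEF1G itself is listed at 0 in all 6 libraries, and exons of ENSG00000255508, another counted TU on its strand, cover 99.5% of its counted exons. The window of ENSG00000283041 printed above differs from EEF1G at 2 bases, and 64.6% of the 75-base windows of the copy are found unchanged in EEF1G. EEF1GP1, an outside copy with 89.9% identity, had 11 RNA-seq counts in all. The share of the counts of ENSG00000283041 that came from EEF1G mRNA was not tested.

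CCT8P1 (chr1:146674857-146676513, minus strand), a copy of the chaperonin subunit gene CCT8, lies in FMO5, which had only 4.02 TPM in PRO-seq. Its RNA-seq counts were 1034, 1099, 683 and 739, or 156 TPM, against 1740 TPM for CCT8. Its PRO-seq counts were 0 and 0. Only 5.94% of its 75-base windows are shared with CCT8. EEF1A1P6, a copy of EEF1A1 with 99.4% identity within STEAP1B, had RNA-seq counts of 191, 186, 234 and 203 and PRO-seq counts of 3 and 6. The counted transcript of STEAP1B does not span it. HMGB3P22 and EEF1A1P23, transcribed copies with 2 and 3 exons in CANX and ATP13A4, had 19 and 29, and 11 and 8 PRO-seq counts, and at most 2 RNA-seq counts in any library. Their hosts' counted transcripts do not span them either.

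Among other-strand members whose PRO-seq window was 200 bp or longer, 3 of the 4 with the highest RNA-seq TPM were close copies of mRNAs counted at 132 to 3690 TPM. HSPD1P1 (chr5:21882694-21884419, plus strand) lies opposite CDH12, a cadherin gene with 2.07 TPM in PRO-seq, and has 97.4% identity to HSPD1. Its RNA-seq counts were 421, 503, 335 and 317, and its PRO-seq counts were 10 and 4. DYNC1I2P1, a copy of a dynein chain gene with 98.9% identity opposite ASAH2, had 176, 201, 139 and 151 RNA-seq counts and no PRO-seq count. RPL4P4, a copy of the ribosomal protein gene RPL4 with 98.4% identity opposite MAP3K13, had 187, 253, 170 and 174 RNA-seq counts and 4 and 1 PRO-seq counts. The exception was HSPD1P12 (92.9% identity, no shared 75-base window) opposite SLC2A3, a glucose transporter gene with 386 TPM in PRO-seq. The counted transcript of SLC2A3 does not span this member. HSPD1P12 had 261, 247, 188 and 146 RNA-seq counts and no PRO-seq count.

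Among other-strand members with 10 or more PRO-seq counts and a window of 200 bp or more, the 2 with the highest PRO-seq TPM were insertions of mitochondrial sequence opposite PCBD2. The next were EIF4A1P10, a copy of the helicase gene EIF4A1 opposite PCDH11X, at 257 TPM, and the mitochondrial insertion MTCO1P15, at 43.7 TPM. MTND5P11 (chr5:134260338-134262149, minus strand) had PRO-seq counts of 87 and 105 and RNA-seq counts of 0, 0, 0 and 1. MTND4P12 (chr5:134262350-134263726, minus strand), its neighbour, had PRO-seq counts of 24 and 38 and RNA-seq counts of 2, 3, 1 and 2. Identity to the mitochondrial genes MT-ND5 and MT-ND4 was 93% and 95.8%. MT-ND5 had 1457 and 1087 PRO-seq counts and 1281 to 2048 RNA-seq counts. For both insertions, each PRO-seq count was above every RNA-seq count.

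Outside coding genes, EEF1A1P5 (chr9:135894873-135896261, plus strand) had the most RNA. This copy of EEF1A1, the elongation factor that brings aminoacyl-tRNA to the ribosome, has 99.7% identity to its source. Its RNA-seq counts were 917, 1103, 768 and 1225 and its PRO-seq counts were 23 and 27, against 360601 and 7805 counts in all for EEF1A1. HSP90AB3P, a copy of the heat shock protein gene HSP90AB1 with 97.1% identity, had 925, 971, 657 and 696 RNA-seq counts and 1 and 3 PRO-seq counts. RPL4P5 had 608, 599, 375 and 468 RNA-seq counts and TUBBP1, a copy of the beta tubulin gene TUBB, had 298, 282, 234 and 200, and neither had a PRO-seq count.

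The outside members with the highest PRO-seq TPM, given 10 counts and a PRO-seq window of 200 bp or more, were others. KRT18P55 (chr17:26603070-26604362, minus strand) had 43 and 48 PRO-seq counts and 1, 2, 1 and 1 RNA-seq counts. TUFMP1, a copy of the mitochondrial elongation factor gene TUFM, had 77 and 95 PRO-seq counts and 84, 90, 54 and 67 RNA-seq counts. ABCB10P4, a copy of the mitochondrial transporter gene ABCB10, had 96 and 95, and 78, 84, 57 and 69. TUBAP11 had 20 PRO-seq counts in each library and 5, 10, 0 and 3 RNA-seq counts. Identity of these 4 to their sources was 86.0% to 92.9%, below that of EEF1A1P5, HSP90AB3P, RPL4P5 and TUBBP1 (96.3% to 99.7%).

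**Figure D3:**
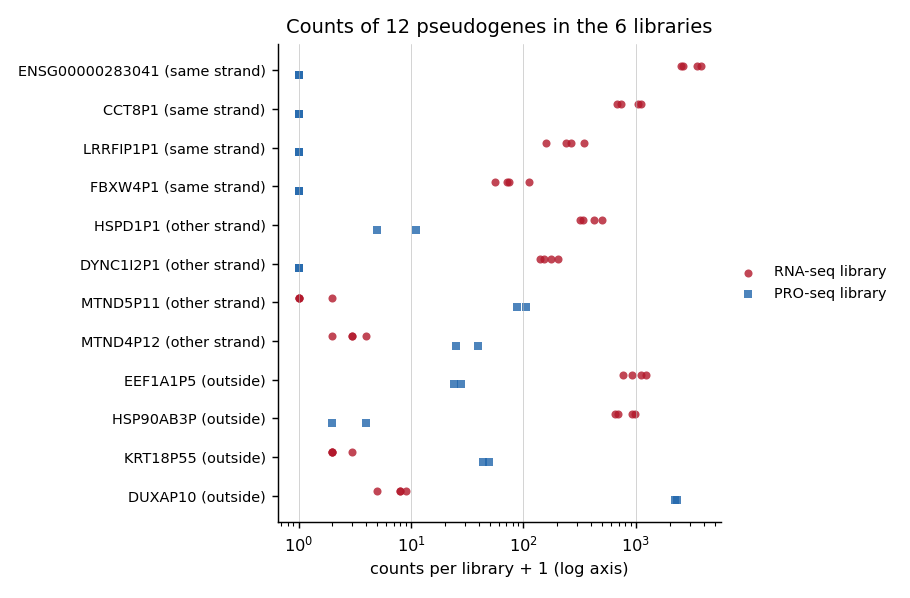
Counts per library plus 1 (x axis, log) of 12 pseudogenes (y axis, with location), with red circles for the 4 RNA-seq libraries and blue squares for the 2 PRO-seq libraries. ENSG00000283041 has 2534 to 3764 RNA-seq counts and no PRO-seq count, and DUXAP10 has 2237 and 2322 PRO-seq counts and 4 to 8 RNA-seq counts.

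Identity to an mRNA went with RNA-seq counts and less with PRO-seq counts. An alignment to a counted mRNA was found for 2438 members. RNA-seq counts were present for 34.5% of 380 members with at most 80% identity, 37.2% of 419 at 80% to 85%, 48.4% of 587 at 85% to 90%, 72.0% of 740 at 90% to 95%, 82.1% of 234 at 95% to 98% and 78.2% of 78 above 98%. PRO-seq counts were present for 21.8%, 19.3%, 26.4%, 25.8%, 35% and 29.5% of them. The assays differ in the records set aside for low alignment quality, and windows covered on the same strand were rarely counted in PRO-seq. The contrast between the assays is therefore not on equal terms, and its cause was not tested. The median summed RNA-seq count was 0 in the 3 lowest classes and 2, 9 and 28.5 in the others.

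Within locations, the order was clearest outside coding genes, where the share with RNA-seq counts over the 6 classes was 29.4%, 35.8%, 44.3%, 69.5%, 78.9% and 81.2%. On the other strand it was 39.1%, 24.2%, 45.0%, 75.7%, 88.9% and all 9 members above 98%. On the same strand it was 64.7%, 57.7%, 71.2%, 81.9%, 89.7% and, for 17 members above 98%, 64.7% again. In single libraries the lowest class had 26.5% to 41.2% and the highest 52.9% to 58.8%, and the median summed counts were 1 and 20. The highest class holds ENO1P1 and CEACAMP10, whose closest mRNA was that of their own host and which had no RNA-seq count. Spearman's correlation between identity and RNA-seq TPM was 0.355 over 271 same-strand, 0.567 over 363 other-strand and 0.469 over 1701 outside members. With PRO-seq TPM it was -0.0468, 0.22 and 0.115 over 226, 287 and 1267.

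**Figure D4:**
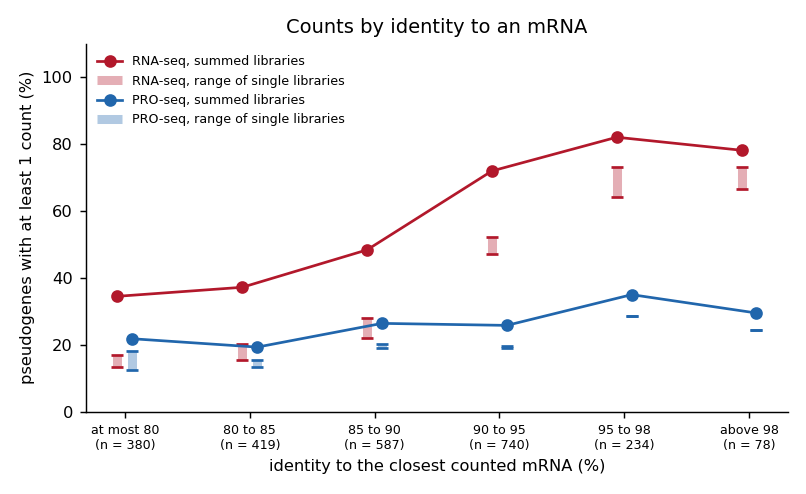
Share of processed pseudogenes with at least 1 count (y axis, percent) by identity to the closest counted mRNA (x axis, percent), for the summed RNA-seq (red) and PRO-seq (blue) libraries, with bars for the range of single libraries. RNA-seq goes from 34.5% to 82.1% at 95% to 98% identity, and PRO-seq lies between 19.3% and 35%.

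The level of the source mRNA went with RNA-seq counts only among the closer copies. Below 90% identity, 40.2% of members had RNA-seq counts where the source had at most 1 TPM in RNA-seq, and 39.4%, 41.0% and 42.1% where it had 1 to 10, 10 to 100 and above 100 TPM. At 90% identity or more the shares were 46.4%, 59.2%, 76.1% and 83.6%. The lowest class holds copies of EEF1G and EIF4A1, listed at 0 while exons of other counted TUs cover 99.5% and 100% of theirs. The level of such sources is not known from these counts. In PRO-seq the shares at 90% or more were 21.6%, 27.6%, 26.8% and 31.2%. Members that shared no 75-base window with the source had RNA-seq counts in 46.5% of 1876 cases, and those that shared any had them in 81.9% to 84.5%. The share of a member's reads that came from its source was not tested.

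Copies of different gene families differed in how much RNA was counted. Families were assigned by the source gene, except insertions from the mitochondrial genome, which were assigned by their own symbol. Members with a symbol-derived parent numbered 1594. Of 73 copies of heat shock protein and chaperonin genes, 56 (76.7%) had RNA-seq counts and 24 (32.9%) had PRO-seq counts, with 12206 and 85 counts in all. Of 48 copies of elongation factor genes, 34 (70.8%) had RNA-seq counts and 16 (33.3%) had PRO-seq counts, with 19404 and 114 counts in all, and ENSG00000283041 held 12414 of the former. Of 107 copies of cytosolic ribosomal protein genes, 53 (49.5%) had RNA-seq counts and 30 (28%) had PRO-seq counts. Of 106 keratin copies, 63 (59.4%) and 17 (16%) did.

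Insertions from the mitochondrial genome were the family with the fewest RNA-seq counts for its size. Of 66 such members, 21 (31.8%) had RNA-seq counts and 10 (15.2%) had PRO-seq counts, with 39 and 293 counts in all. Their median identity to an mRNA was 76.1%, the lowest of the 11 families. Over all members 54.6% had RNA-seq counts and 25.4% had PRO-seq counts, so heat shock and elongation factor copies were above these shares in both assays and mitochondrial insertions below them in both.

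Members annotated as transcribed were counted more often by PRO-seq. Outside coding genes, 116 of 188 transcribed members (61.7%) and 398 of 1660 others (24.0%) had PRO-seq counts, and 60.1% and 50.6% had RNA-seq counts. The transcribed members were longer, with a median span of 5880 bp against 1410 bp. Several span long stretches of genome of which only a small part is exon. DUXAP10 (chr14:19856543-19925329, minus strand), with 9 exons over 68787 bp, had the most PRO-seq counts of any member, 2237 and 2322, and RNA-seq counts of 7, 4, 7 and 8. ENSG00000277654 had 1957 and 1847 PRO-seq counts over 266201 bp, and RNA-seq counts of 25, 18, 9 and 9. MIR3171HG, over 523208 bp, had 943 and 1034, and 6, 4, 6 and 8. ZNF37BP had counts of the same order in both assays, with 251, 273, 166 and 235 RNA-seq counts and 905 and 833 PRO-seq counts.

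**Figure D5:**
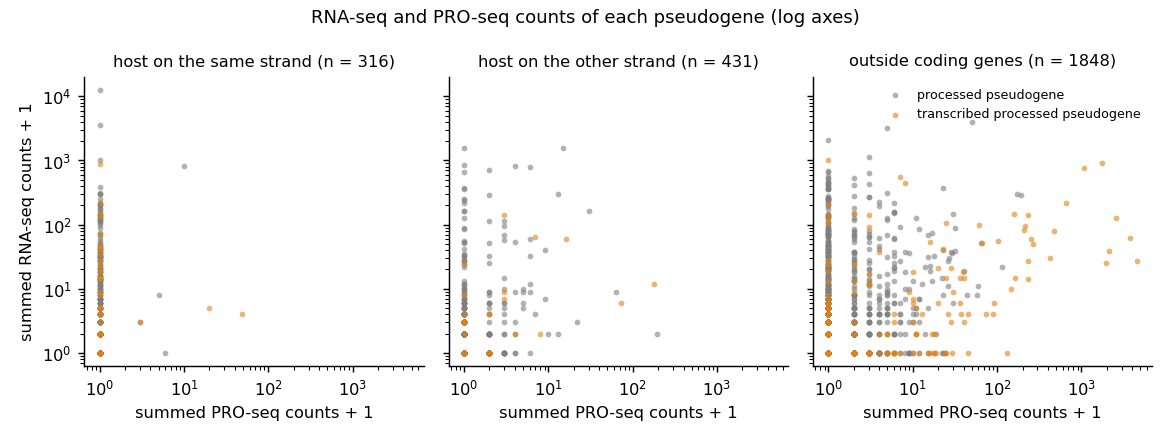
Summed RNA-seq counts plus 1 (y axis, log) against summed PRO-seq counts plus 1 (x axis, log) of each pseudogene, by location, with processed members in grey and transcribed processed members in orange. In the left panel only 7 of 316 members have any PRO-seq count, and in the right panel the members with the most PRO-seq counts are of the transcribed type.

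The ratio of RNA-seq to PRO-seq, each scaled by TU length, was tested for every TU with counts in both assays against the median protein-coding TU. This ratio is the study's measure of relative RNA half-life. Of 458 members tested, edgeR's quasi-likelihood test at an adjusted p under 0.05 placed 33 (7.21%) above that median and 191 (41.7%) below it, against 31.6% and 37.3% of all 21100 TUs tested. The remaining members lacked counts in 1 or both assays or had no length left for PRO-seq, so those with RNA-seq counts alone could not enter. By location, 1 and 1 of 6 same-strand, 7 and 24 of 75 other-strand and 20 and 153 of 348 outside members were above and below.

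These calls rest on length. PRO-seq counts are divided by the span less 1000 bp, which is short for most members, and with no length in the fit 136 members (29.7%) were above and 73 (15.9%) below, against 33.4% and 41.0% of all TUs. The share below, which was over that of all TUs with length in the fit, was also under it with 500 bp left out (35.4% against 36.9%) and with at least 10 counts over the 6 libraries and no minimum per assay (25.7% against 43.8%). The share above was under that of all TUs in each of these fits. The median log2 ratio relative to the median protein-coding TU was -1.87 over 6 same-strand, -2.93 over 75 other-strand and -3.04 over 348 outside members, and per count (CPM) it was 0.0, 1.32 and 0.58. From single libraries, the 8 possible RNA-seq and PRO-seq pairs gave -1.18 to 0.67, -2.84 to -2.08 and -3.01 to -2.48.

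Among members above the median, HSP90AB3P had a log2 ratio of 5.36 ± 0.32 (SE, edgeR adjusted p = 1e-60, n = 4 and 2 libraries) and HSPD1P1 of 2.16 ± 0.30 (adjusted p = 3.4e-12). Without PRO-seq replicate 2 they were at 6.27 and 1.57, and without PRO-seq replicate 1 at 4.83 and 3.01. ENSG00000267422, a transcribed member of 2 exons over 13087 bp opposite the zinc finger gene ZNF573, was at 3.25 ± 0.42 (adjusted p = 4.2e-14), from RNA-seq counts of 27, 16, 7 and 8 and PRO-seq counts of 9 and 6. EEF1A1P5 was at 1.10 ± 0.18 (adjusted p = 4e-09), and at 0.56 (adjusted p = 0.13) when only TUs with at least 10 counts in each assay were fitted. CCDC144CP, with 19 exons over 82241 bp, was at 1.22 ± 0.27 (adjusted p = 1.4e-05).

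Among members below it, MTND5P11 had the lowest named log2 ratio, -11.36 ± 0.37 (edgeR adjusted p = 4.5e-207). That value rests on 1 RNA-seq count, in replicate 4, and DESeq2 gave an adjusted p of 6.8e-30. The SEs here are derived from edgeR's F value and can understate the error of members with so few counts. KRT18P55 was at -9.53 ± 0.42, MTND4P12 at -8.10 ± 0.46 and TSPY26P, with 78 and 85 PRO-seq counts against 2 to 7 RNA-seq counts, at -7.31 ± 0.30. DUXAP10 was at -5.17 ± 0.15. TUFMP1 and ABCB10P4 were at -4.58 ± 0.19 and -3.69 ± 0.17, but at 0.74 and 0.56 with no length in the fit. SRSF6P2, at -7.60 ± 0.84 from 10 and 3 PRO-seq counts, had 34 bp left for PRO-seq, and with no length its value was 0.64 (adjusted p = 0.33). Without PRO-seq replicate 1 or 2 it was -6.45 or -8.31.

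Of the well-known pseudogenes looked up by name, ANXA2P2, a copy of the annexin gene ANXA2 with 98.4% identity, had 77, 75, 53 and 57 RNA-seq counts and no PRO-seq count, with 20 bp left for PRO-seq. POU5F1P3 and POU5F1P4, copies of the pluripotency gene POU5F1, had no count in any library, which allows up to 3 counts. POU5F1 itself had 1 RNA-seq count. BRAFP1, NANOGP8, KRAS1P, HMGA1P6, HMGA1P7, DUXAP8 and CYCSP were not among the members. Of the 40 members of the EEF1A1P series, 28 had RNA-seq counts and 14 had PRO-seq counts.

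In sum over TUs, members held 0.291% ± 0.00684 (SD, n = 4) of RNA-seq counts and 0.238% ± 0.00106 (SD, n = 2) of PRO-seq counts. Every RNA-seq library (0.283% to 0.298%) was above both PRO-seq libraries (0.237% and 0.238%), and the two-sided exact permutation p was 0.133, the smallest that 4 against 2 libraries can give. Same-strand members held 0.0906% ± 0.00251 against 0.000642% ± 7.58e-05, other-strand members 0.0411% ± 0.000543 against 0.00596% ± 0.000167, and outside members 0.151% ± 0.00528 against 0.183% ± 0.000502. The same-strand difference (0.09 percentage points) was larger than that of all members (0.0534), and outside members went the other way. Members in a window that other TUs cover on the same strand were rarely counted in PRO-seq. The difference over all members is therefore no measure of RNA against transcription. Members of the processed type held 0.252% of RNA-seq and 0.0208% of PRO-seq counts, and transcribed members 0.0394% and 0.217%. The counts were concentrated: the 10 members with the most counts held 37.8% of 83411 RNA-seq counts and 65.6% of 32900 PRO-seq counts, and 986 members had no count in any library.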

How the data were processed

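The authors deposited raw HTSeq counts per transcript for each of 4 RNA-seq and 2 PRO-seq libraries, without normalization. After trimming with Cutadapt, reads were aligned to GRCh38 with HISAT2 and counted on GENCODE transcripts, over exons for RNA-seq and without 500 bp at each end for PRO-seq. Tool versions, the HTSeq mode and whether strand was used are stated in no source used here. Records that name no TU (66.5% to 68.6% of an RNA-seq library, 86.5% and 88.6% of a PRO-seq library) stayed out of totals and tests. Ambiguous records were 1.53% to 1.65% and 0.943% and 0.819%.

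Transcripts were joined by identifier to GENCODE release 44 on GRCh37, which gave types, locations, lengths and coordinates, and which can differ from the annotation counted on. A host is the smallest protein-coding gene that holds the counted transcript, and 17 members lay in coding genes on both strands and count as same strand. TPM used counts summed over replicates, exon length for RNA-seq and span less 1000 bp for PRO-seq. Members and counted mRNAs of GENCODE were aligned with megablast (BLAST 2.17.0, word size 16, e-value 1e-10, plus strand), and the source is the parent named by the symbol, or else the closest mRNA. The best alignment was to that parent for 1450 of 1508 members aligned to it. Identity is that of the best local alignment, which can cover part of a member, and the closest mRNA can be that of the host.

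TUs with at least 1 count in each assay were fitted with edgeR 4.0.16 (R 4.3.3) by its quasi-likelihood test, with TMM, length offsets and centring on the median protein-coding TU, and Benjamini-Hochberg adjustment over all TUs tested. The SE printed with a log2 ratio is the size of that ratio divided by the square root of the test's F value. It is not a direct standard error of the ratio. On simulated counts of 18950 TUs, 73% of 100 TUs changed by 1 and 99% of 100 changed by 2 on the log2 scale were recovered in the comparison of RNA-seq with PRO-seq, with 6 false calls. The changed TUs were drawn only from those with expected counts well above those of most members, at 1 fixed dispersion. The recovery rates therefore do not apply to members with few counts. DESeq2 1.42.0, other filters, lengths, locations and omitted libraries were alternatives. Named members are, per location, the 4 highest in TPM in each assay (at least 10 counts and 200 bp left) and the 3 highest and lowest called ratios with at least 10 counts in each assay, plus pseudogenes listed by name (1 of them is not reported here), except where the text says otherwise and except the members with the most PRO-seq counts, which were chosen after their values were seen. Not every named member is described. Members, lists and tests were chosen with earlier results of these data known. Other tools were Python 3.11.15, pandas 2.3.3, numpy 2.4.6 and scipy 1.17.1.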

Additional observations from a re-analysis of the deposited data

Results flagged for a closer look

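In RNA-seq replicate 2, CCDC144CP had 4.22 CPM (counts per 1e6 counts on TUs), and the other 3 RNA-seq libraries had 2.62 to 2.88, a gap of 0.837 of the whole range. TSPY26P had 0.778 CPM in the same library against 0.303 to 0.353 in the others, a gap of 0.894. Both gaps exceed Dixon's critical value for 4 samples. The values rest on 38 and 7 counts, and chance alone flags about 1 in 20 of the 30 sets of values tested. Without RNA-seq replicate 2 both members kept their side of the median protein-coding TU at an edgeR adjusted p under 0.05.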

How the results depend on the processing

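Members above and below the median protein-coding TU (33 and 191 of 458) were 6 and 64 of 78 with at least 10 counts in each assay (7.69% and 82.1% against 38.5% and 48.5% of all TUs), 2 and 64 of 92 at the study's TPM thresholds (2.17% and 69.6% against 40% and 50.4%), 136 and 73 with no length, and 121 and 154 of 599 with at least 10 counts over the 6 libraries (20.2% and 25.7% against 33.2% and 43.8%). With a replicate block, 28 were above and 121 below (6.11% and 26.4% against 30.2% and 30.1%). The share below thus lies above or below that of all TUs depending on the setting. Replicate numbers do not pair these libraries (correlation of deviations -0.0112 over 13822 TUs). Leaving out 1 library gave 17 to 33 above and 142 to 174 below, with 17 above without PRO-seq replicate 2. Members with at least 10 summed counts in RNA-seq and PRO-seq were 34.2% and 0.633% on the same strand, 13.0% and 2.32% on the other strand and 17.0% and 5.79% outside. With at least 500 bp left, PRO-seq counts were present for 4.44%, 43.8% and 41.8%, and RNA-seq counts for 57.3% on the other strand. Located by counted transcripts, PRO-seq shares were 0.0% on the same strand and 28.2% outside. RNA-seq replicates 1 and 2 alone gave 64.6%, 41.5% and 43.1%. Leaving out 1 library gave RNA-seq shares of 66.1% to 69.6%, 47.1% to 48.7% and 45.8% to 48.1%, and PRO-seq shares of 1.9%, 17.4% to 18.3% and 20.7% to 21.0%.

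Per count, the median log2 ratio changed sign on the other strand (1.32) and outside (0.58) and was 0.0 on the same strand. For 1 same-strand member it was 0.58 at the study's thresholds. On the other strand it was -0.10 with at least 10 counts in each assay (5 members), -2.55 at the study's thresholds, -3.46 with a pseudocount of 1, -2.17 with 500 bp left out and -3.38 when located by counted transcripts. Outside it was -2.78, -2.79 and, with 500 bp left out, -2.18. Leaving out 1 library gave -1.92 to -1.24, -3.38 to -2.66 and -3.42 to -2.74. With no length, the log2 ratio turned to 2.46 for EIF4A1P10, 0.74 for TUFMP1, 0.56 for ABCB10P4, -1.52 for ENSG00000215869 and 0.64 for SRSF6P2. Of 262 alternative values for 22 named members, 248 kept direction and side. The cause of these shifts was not tested beyond the settings named. Depth limits members with a few counts, and 0 counts allow up to 3.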
